A study of Mus musculus with 6 samples.

Results

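The genes described here are 7 matrix metalloproteinases (Mmp2, Mmp8, Mmp9, Mmp12, Mmp13, Mmp14 and Mmp19) and 3 of their tissue inhibitors (Timp1, Timp2 and Timp3), as measured in mouse bone marrow progenitors and in the dendritic cells obtained from them. They were taken by gene symbol, chosen by their measured log2 levels and their changes against the progenitors on these arrays, and all 10 were on the array, with 23 of the 34945 probe sets that carry a single gene symbol and 10 of the 18193 genes measured. The large difference of Mmp12 was among the values known. For these 10 genes the comparisons with the progenitors are therefore a description, given without a p-value, and the counts made from them support nothing further. All cells came from C57BL/6 mice. GM-MPP are multipotent progenitors, grown from bone marrow in stem cell cytokines together with GM-CSF, a growth factor of myeloid cells. GM-DC are dendritic cells made from such GM-MPP in GM-CSF, and GM-TNFa-DC are dendritic cells made from GM-MPP in GM-CSF plus TNFa, an inflammatory cytokine. All 3 groups thus received GM-CSF, and there were 2 arrays of each. The sources used here give no doses, culture times or age of the mice. They do not say either whether the arrays of one group stand for different cultures or mice, so that errors and p-values cover only array-to-array spread, which may be technical.

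Matrix metalloproteinases are zinc-dependent proteases that are made as inactive proforms, most of them secreted and some held in the cell membrane, and that cut collagens, elastin, gelatin and many cell surface proteins. Timps bind the active site of these enzymes and block it, and Timp2 together with the membrane enzyme Mmp14 also takes part in activating pro-Mmp2. In myeloid cells Mmp8 and Mmp9 are stored in neutrophil granules, Mmp12 is known as the elastase of macrophages, and dendritic cells use secreted and membrane-bound metalloproteinases when they move through tissue.

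Values are log2 expression levels, so that 1 unit is a 2-fold difference. Array medians over all probe sets lay between 4.67 and 4.77, lower quartiles between 3.36 and 3.47 and the brightest values between 14.02 and 14.43. Levels near or under the median are close to the background of such arrays, and levels near the top are compressed. The arrays of a group are numbered 1 and 2 in the labels. Of all genes, 2.18% differed at least 2-fold between the 2 GM-MPP arrays, 7.31% between the GM-DC arrays and 8.94% between the GM-TNFa-DC arrays. Control transcripts added before labelling were brighter on array 1 for 24 of 24 control probe sets in every group, with medians of 2.43-fold, 2.13-fold and 2.58-fold. Of 12 dendritic cell markers, 10 rose in GM-DC against GM-MPP and 1 fell, the cytokine receptor gene Flt3 (limma, Benjamini-Hochberg adjusted p = 0.0443). They averaged 5.22 and 5.41 in the progenitors and between 9.55 and 11.44 on the dendritic cell arrays. Of 9 progenitor markers 5 fell, among them Cd34, which was at 6.98 and 7.38 in GM-MPP and between 2.86 and 3.59 on the dendritic cell arrays. Kit did not separate the groups, with 7.09 and 7.22 in GM-MPP but 8.66 and 5.43 in GM-TNFa-DC. Neutrophil markers were bright in GM-MPP, with a mean over 11 genes of 12.08 and 12.65, and 5 of the 11 fell in GM-DC. By the same fit 2 of 12 monocyte and macrophage markers and 3 of 9 osteoclast markers rose, and 2 of 8 mast cell and basophil markers fell. Of 9 lymphocyte markers 1 rose and 2 fell, while none of 12 stromal and endothelial markers was called. Over all genes this fit called 1.87% higher and 2.63% lower in GM-DC against GM-MPP. In such bulk samples fewer cells of a type and less RNA per cell cannot be told apart.

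Mmp12, the macrophage elastase, separated both kinds of dendritic cell from the progenitors without any overlap. Its level was 4.23 and 3.50 on GM-MPP arrays 1 and 2, 13.38 and 13.67 in GM-DC, and 13.09 and 13.77 in GM-TNFa-DC. The progenitor values lay below the array medians and the dendritic cell values less than 1 unit under the brightest signal of each array, so the fold is not exact at either end. The log2 change from GM-MPP was 9.66 ± 0.35 (moderated SE), or 808-fold, in GM-DC and 9.56 ± 0.35, or 757-fold, in GM-TNFa-DC. In each of these comparisons it was the highest change of all 18193 genes. Between the arrays of a group Mmp12 varied with SDs of 0.52 in GM-MPP, 0.21 in GM-DC and 0.48 in GM-TNFa-DC (n = 2 each). Among the other 6 metalloproteinases the SDs ran from 0.01 (Mmp13) to 1.96 (Mmp9) in GM-MPP. They ran from 1.30 to 2.78 in GM-DC and from 0.32 (Mmp14) to 2.94 (Mmp9) in GM-TNFa-DC. The SDs of Mmp12 come from levels near the ends of the scale, where differences are compressed. They do not show that it varied less.

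**Figure D1:**
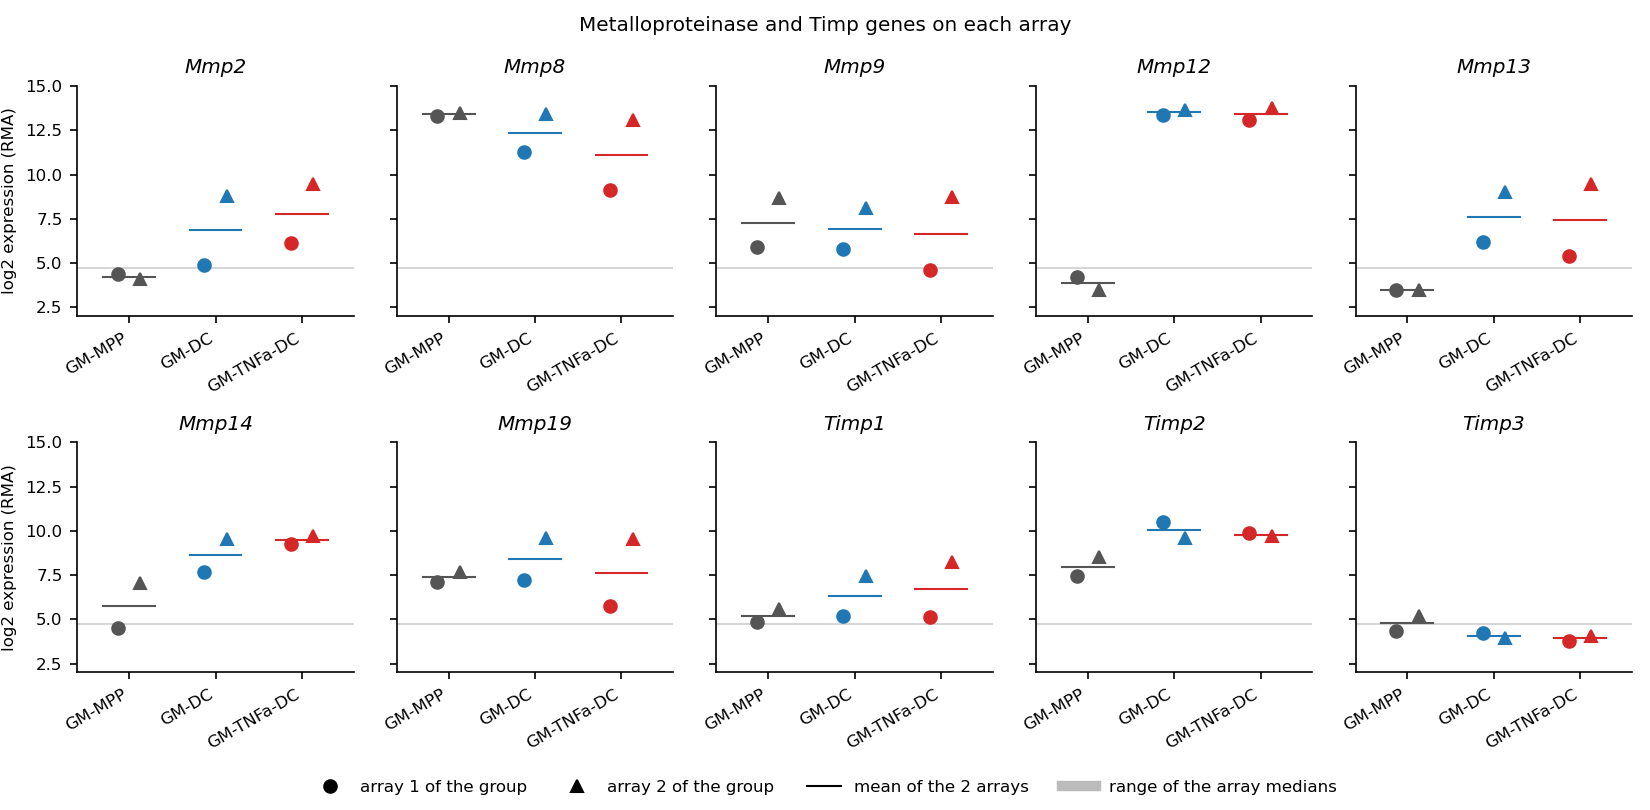
Log2 expression (RMA) of the 10 genes on each of the 6 arrays. Circles are array 1 and triangles array 2 of each group, short lines are group means (n = 2) and the grey band is the range of the array medians. Mmp12 lies at 3.50 to 4.23 in GM-MPP and at 13.09 to 13.77 on the 4 dendritic cell arrays, while Mmp2, Mmp8, Mmp9, Mmp13, Mmp19 and Timp1 differ widely between arrays 1 and 2 of the dendritic cell groups.

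The collagenases, which cut intact fibrillar collagen, did not follow one pattern. Mmp13, collagenase-3, was at 3.48 and 3.49 in GM-MPP, at 6.18 and 8.99 in GM-DC and at 5.38 and 9.44 in GM-TNFa-DC. All 4 dendritic cell values lay above both progenitor values, which were close to the lower quartile of the arrays, but the arrays of a dendritic cell group were far apart. The log2 change was 4.10 ± 1.48 in GM-DC and 3.92 ± 1.48 in GM-TNFa-DC, both against GM-MPP. Mmp8, the neutrophil collagenase, was brightest in the progenitors, at 13.32 and 13.45. It stood at 11.27 and 13.39 in GM-DC and at 9.15 and 13.08 in GM-TNFa-DC. Array 2 of GM-DC thus overlapped the progenitors, whereas both GM-TNFa-DC arrays lay below them, array 2 by only 0.24. The change from GM-MPP was -1.06 ± 1.34 in GM-DC and -2.27 ± 1.34 in GM-TNFa-DC.

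The gelatinases Mmp2 and Mmp9 cut denatured collagen and basement membrane. Mmp2 was at 4.37 and 4.07 in GM-MPP, below the array medians, at 4.88 and 8.80 in GM-DC and at 6.13 and 9.45 in GM-TNFa-DC. The groups did not overlap, but array 1 of GM-DC was only 0.51 above the nearer progenitor array. Its log2 change from GM-MPP was 2.62 ± 1.54 in GM-DC and 3.57 ± 1.54 in GM-TNFa-DC. Mmp9 was at 5.89 and 8.66 in GM-MPP, 5.77 and 8.08 in GM-DC and 4.58 and 8.74 in GM-TNFa-DC. Here the 3 groups overlapped throughout, and array 1 was the lower one in every group. The changes of -0.34 ± 1.65 and -0.61 ± 1.65 from GM-MPP were smaller than their errors. On the dimmer of the 2 probe sets of Mmp2, GM-DC 1 lay between the progenitor values of 4.12 and 3.94, so there the groups overlapped. The second Mmp9 probe set gave changes of -0.42 and -0.81.

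Mmp14, a membrane-anchored enzyme that activates pro-Mmp2, was at 4.49 and 7.04 in GM-MPP, 7.69 and 9.52 in GM-DC and 9.26 and 9.71 in GM-TNFa-DC. The dendritic cell arrays were all above the progenitor arrays, by 0.65 at the narrowest point in GM-DC and by 2.22 in GM-TNFa-DC. Its changes from GM-MPP were 2.84 ± 0.96 and 3.72 ± 0.96, and all 3 probe sets were higher in GM-DC, by 2.84, 2.15 and 1.02. Their mean gave a change of 2.00 in GM-DC and 2.79 in GM-TNFa-DC. Mmp19, a secreted metalloproteinase of myeloid and other cells, was at 7.13 and 7.68 in GM-MPP, 7.19 and 9.59 in GM-DC and 5.74 and 9.51 in GM-TNFa-DC. Array 1 of GM-DC lay between the progenitor values and array 1 of GM-TNFa-DC below both, so the groups overlapped, and the changes were 0.99 ± 1.35 and 0.22 ± 1.35.

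Among the inhibitors, Timp2 was higher in dendritic cells, Timp1 varied between arrays, and Timp3 was dim. Timp2, at 7.47 and 8.49 in GM-MPP, was at 10.49 and 9.57 in GM-DC and at 9.86 and 9.70 in GM-TNFa-DC. No dendritic cell array lay below a progenitor array, and the log2 change from GM-MPP was 2.05 ± 0.45, or 4.14-fold, and 1.80 ± 0.45, or 3.48-fold. Of its 6 probe sets, 5 were higher in GM-DC by 1.25 to 2.05, and the remaining one, between 3.48 and 3.71 on all arrays, differed by 0.03. In GM-TNFa-DC the 4 dimmer of these 5 gave smaller changes, of 0.86 to 1.49, and one of them overlapped, at 7.13 on GM-TNFa-DC 2 against 7.28 on GM-MPP 2. As the mean of all its probe sets Timp2 had a change of 1.47 in GM-DC and 1.05 in GM-TNFa-DC. Timp1 was at 4.84 and 5.57 in GM-MPP, 5.18 and 7.46 in GM-DC and 5.15 and 8.25 in GM-TNFa-DC. Both array-1 values of the dendritic cells lay between the progenitor values, and the changes of 1.11 ± 1.18 and 1.49 ± 1.18 were close to their errors. Timp3, an inhibitor that binds to the matrix, was at 4.34 and 5.21 in GM-MPP and between 3.79 and 4.22 on the dendritic cell arrays. On this probe set the groups did not overlap, by a margin of 0.13 in GM-DC, but these values lie around the array medians or below, where differences are compressed. All 4 Timp3 probe sets stayed at 5.21 or below, and the groups did not separate on all of them. One had 2.91 and 3.28 in GM-DC against 3.11 and 3.70 in GM-MPP, and its change in GM-TNFa-DC was -0.02. Another had 3.47 and 3.69 in GM-DC against 3.53 and 4.27.

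Set side by side, 7 of the 10 means were higher in GM-DC than in GM-MPP and 3 were lower, with a median log2 change of 1.58 against 0.02 over all genes. In GM-TNFa-DC the same count was 7 and 3, and the medians were 1.65 and 0.05. These comparisons share the GM-MPP arrays. In GM-DC, 5 of the 10 lay above GM-MPP without overlap and 1 below, where 28.3% and 27% of all genes did so. In GM-TNFa-DC they were 5 and 2, where 31.6% and 26.1% of all genes did so. Past the threshold of the fit over all genes (limma, adjusted p under 0.05) only Mmp12 was higher and none was lower in either comparison. Over all genes 4.5% were called in GM-DC, 1.87% higher and 2.63% lower, and 7.03% in GM-TNFa-DC, 2.77% higher and 4.26% lower. Nothing is read from these shares, because the genes were chosen with these differences known.

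**Figure D2:**
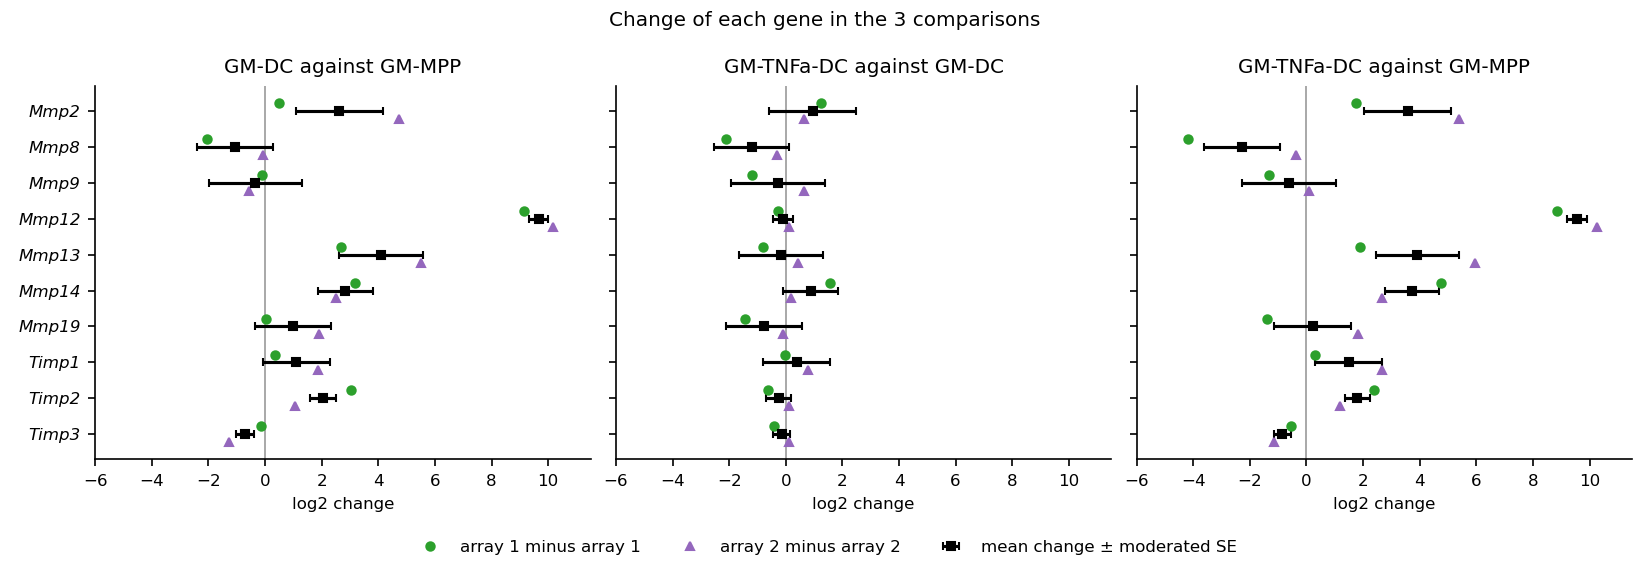
Log2 change of each gene in the 3 comparisons. Squares with bars are mean changes ± moderated SE (n = 2 arrays a group), circles the difference between arrays 1 and triangles that between arrays 2. Mmp12 is at 9.66 and 9.56 against GM-MPP with bars of 0.35, while the changes between the 2 kinds of dendritic cell run from -1.21 to 0.95.

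The contrast between GM-TNFa-DC and GM-DC asks what adding TNFa to GM-CSF changed. No metalloproteinase or Timp gene passed, and all 10 overlapped between the groups, where 14.9% of all genes lay higher without overlap and 10.6% lower. The means of Mmp2, Mmp14 and Timp1 were above those in GM-DC, by 0.95 ± 1.54, 0.88 ± 0.96 and 0.38 ± 1.18. Those of the other 7 were below, with Mmp8 at -1.21 ± 1.34 and Mmp19 at -0.77 ± 1.35. Mmp12 differed by -0.09 ± 0.35, with -0.29 between arrays 1 and 0.10 between arrays 2. Mmp2, Mmp14, Mmp8 and Mmp19 differed in the same direction on both array numbers, Mmp2 (1.25 and 0.64) and Mmp14 (1.57 and 0.19) being higher and Mmp8 (-2.11 and -0.30) and Mmp19 (-1.44 and -0.09) lower. The adjusted p was 1 for every one of the 10 (limma), 0 were below an unadjusted p of 0.05, and over all genes 0% were called and 2.25% were below that unadjusted level. The median over the 10 was -0.17, against 0.01 over all genes. For Mmp2, Mmp8, Mmp9, Mmp13, Mmp19 and Timp1 the error was above 1 unit, and it counts the difference between arrays 1 and 2 that both groups shared.

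A wider difference lay between the arrays numbered 1 and 2. Mmp2, Mmp8, Mmp9, Mmp13, Mmp19 and Timp1 were at least 2-fold brighter on array 2 than on array 1 in GM-DC and again in GM-TNFa-DC, which makes 6 of 10, as were 3.2% of all genes. On the probe set that represents each gene, none was at least 2-fold dimmer on array 2 in both, where 2.06% of all genes were. A dimmer probe set of Timp2 was, at -1.72 log2 units in GM-DC and -1.54 in GM-TNFa-DC. The contrast is between 1 array and 1 array in each group and has no replicate check. The levels behind it were among those known when the genes were chosen, so the count is a description and no excess is read from it. Mmp2 was 15.2-fold and 9.96-fold brighter on array 2, Mmp13 7.04-fold and 16.7-fold, and Mmp9 4.96-fold and 17.9-fold. The corresponding folds were 4.35 and 15.3 for Mmp8, 5.31 and 13.6 for Mmp19, and 4.85 and 8.59 for Timp1. The order of the 2 dendritic cell groups on array 1 differed from gene to gene, with Mmp8 and Mmp19 lower in GM-TNFa-DC 1 than in GM-DC 1 by 2.11 and 1.44, and Mmp2 and Mmp14 higher by 1.25 and 1.57.

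Mmp12, Mmp14, Timp2 and Timp3 did not share this split in both groups. Mmp12 was 1.23-fold and 1.61-fold brighter on array 2, at levels where differences are compressed, and Mmp14 3.57-fold and 1.37-fold. Timp2 went the other way, at 1.9-fold and 1.12-fold brighter on array 1, and 4 of its other probe sets were likewise dimmer on array 2 in both groups, by 0.37 to 2.00 on the log2 scale. In GM-MPP, 2 genes differed more than 2-fold in the same sense as in the dendritic cells, Mmp9 by 2.77 and Mmp14 by 2.54 on the log2 scale. Timp2 differed there by 1.02, opposite to its sense in the dendritic cells. Mmp2, Mmp8 and Mmp13 differed between the GM-MPP arrays by no more than 0.30. There Mmp2 and Mmp13 lay below the array medians and Mmp8 near the top of the scale, where differences are compressed. A split of Mmp2, Mmp8 and Mmp13 in GM-MPP could therefore be hidden. Mmp19, at 7.13 and 7.68 in GM-MPP, lay away from both ends of the scale. It differed there by 0.55, against 2.41 in GM-DC and 3.76 in GM-TNFa-DC. Timp1, at 4.84 and 5.57 in GM-MPP and so closer to the array medians, differed there by 0.73. In GM-DC and GM-TNFa-DC it differed by 2.28 and 3.10.

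**Figure D3:**
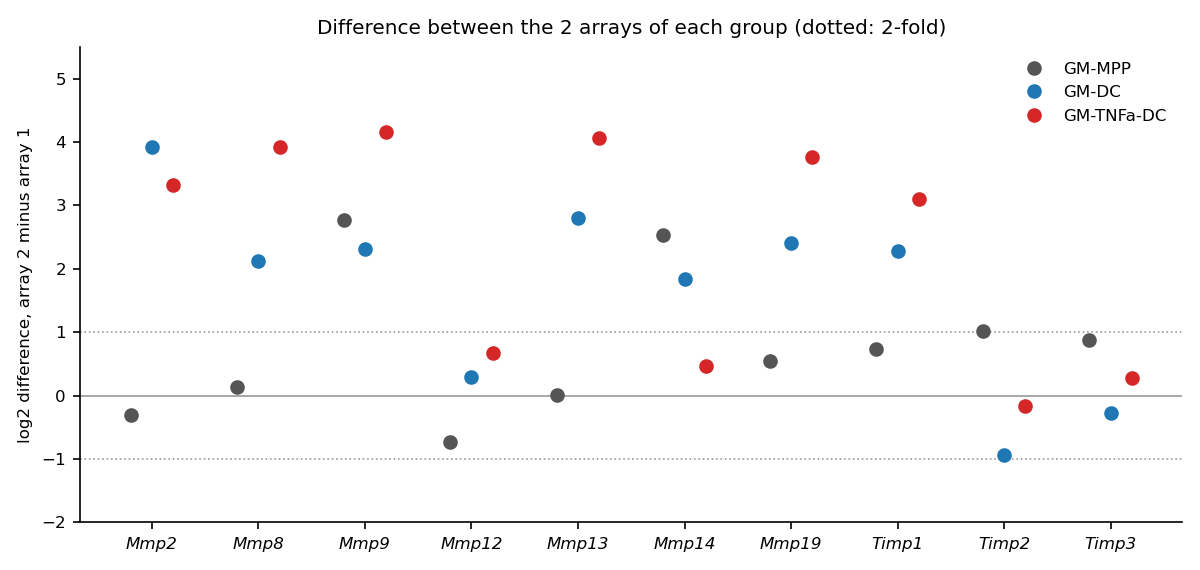
Log2 difference between array 2 and array 1 of each group for the 10 genes, with dotted lines at a 2-fold difference. In both dendritic cell groups Mmp2, Mmp8, Mmp9, Mmp13, Mmp19 and Timp1 lie between 2.12 and 4.16, while Mmp12 lies at 0.29 and 0.68 and Timp2 at -0.93 and -0.16.

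Markers of cell types differed with the array number as well. Over all genes 3.2% were at least 2-fold brighter and 2.06% at least 2-fold dimmer on array 2 in both dendritic cell groups. Dendritic cell markers averaged 10.79 on GM-DC 1 against 9.55 on GM-DC 2 and 11.44 on GM-TNFa-DC 1 against 9.90 on GM-TNFa-DC 2, and 7 of the 12 were at least 2-fold dimmer on array 2 in both groups. Of 12 measured monocyte and macrophage markers, 3 were at least 2-fold brighter on array 2 in both groups and 1 was dimmer. Cd14, a receptor for lipopolysaccharide, was 5.02 and 4.68 units brighter, and the mannose receptor gene Mrc1 differed by -3.36 and -3.49. The range of that list's mean level was 7.84 to 8.85 in GM-MPP, 8.75 to 9.32 in GM-DC and 8.41 to 8.92 in GM-TNFa-DC. Of 11 neutrophil markers, 4 were at least 2-fold dimmer on array 2 in both groups, among them S100a9 (-3.48 and -2.29) and Ngp (-2.98 and -1.72), although Mmp8 and Mmp9 were brighter there. One neutrophil marker, Lcn2, a siderophore-binding protein, was brighter on array 2 by 3.69 and 4.83, like these 2 enzymes. Mean levels of the neutrophil list were 12.08 to 12.65 in GM-MPP, 7.22 to 8.29 in GM-DC and 6.99 to 7.22 in GM-TNFa-DC. Stromal and endothelial markers averaged between 4.34 and 4.91 on all arrays, and the fibroblast collagen genes Col1a1, Col1a2 and Col3a1 lay between 2.81 and 5.59. Of the 12 stromal and endothelial markers 3 were at least 2-fold brighter on array 2 in both groups, among them the matrix proteoglycan gene Dcn, at 6.22 and 6.29 on arrays 2 against 5.10 and 5.08. Of 9 osteoclast markers 1 was brighter by this rule, Acp5 (3.57 and 3.61), and 0 were dimmer. Of 9 progenitor markers 2 were brighter and 1 was dimmer, Kit (-3.34 and -3.23). Among 8 mast cell and basophil markers 2 were dimmer, Epx (-3.12 and -2.31) and Prg2 (-3.11 and -2.29), and 0 were brighter. Among 9 lymphocyte markers 0 were brighter and 0 dimmer. The part of other cell types in the split was not tested.

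In the RefSeq gene table (GRCm38.p6), Mmp13, Mmp12 and Mmp8 belong to a run of 10 metalloproteinase genes on chromosome 9 with no other protein-coding gene between them, in the order Mmp13, Mmp12, Mmp1b, Mmp3, Mmp1a, Mmp10, Mmp8, Mmp27, Mmp20 and Mmp7. Of these, 9 were measured. The 3 described here spanned 5.96 (Mmp13), 10.27 (Mmp12) and 4.30 (Mmp8) log2 units over the 6 arrays. The other 6 measured genes lay between 2.2 and 5.69 on every array, with spans from 0.19 (Mmp7) to 0.7 (Mmp3), and none of the 6 was called in any comparison. Mmp13 and Mmp12 are direct neighbours. Their array splits cannot be compared, because Mmp12 lay near the top of the scale on all 4 dendritic cell arrays. The next 2 genes after Mmp12, Mmp1b and Mmp3, had log2 changes of 0.13 ± 0.13 and -0.36 ± 0.12 from GM-MPP to GM-DC and did not pass (limma adjusted p = 0.602 and 0.153).

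**Figure D4:**
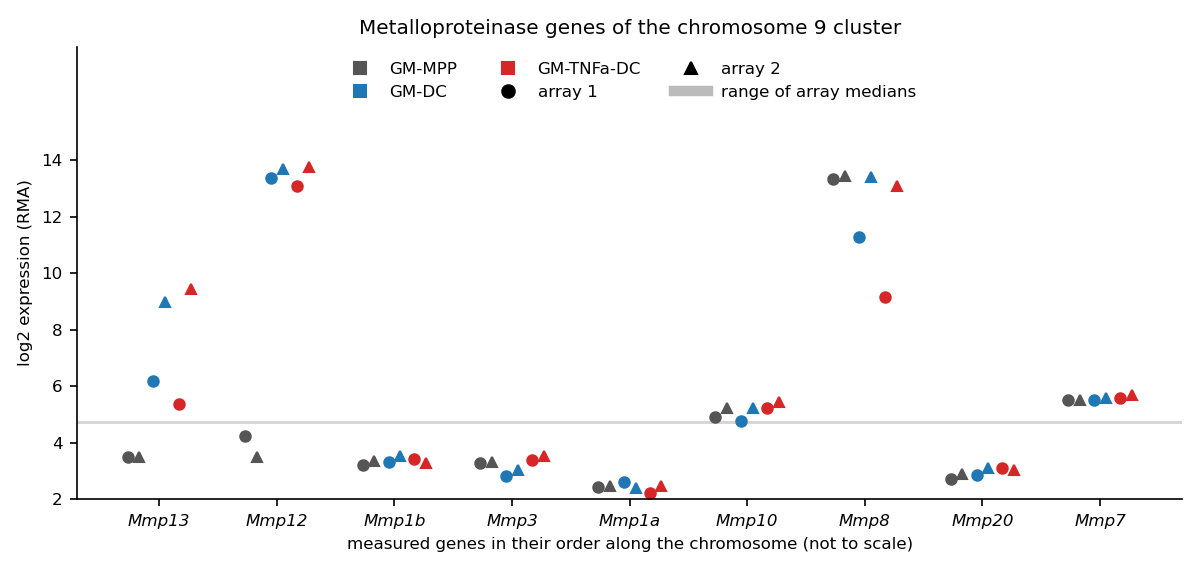
Log2 expression (RMA) of the 9 measured metalloproteinase genes of the chromosome 9 run, in their order along the chromosome and not to scale. Colours are the groups, circles array 1 and triangles array 2, and the grey band is the range of the array medians. Mmp13, Mmp12 and Mmp8 reach 9.44, 13.77 and 13.45, while the other 6 stay between 2.2 and 5.69.

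The sequences before the start sites of these 3 neighbouring genes are shown because the genes differ so widely in pattern. They are the 250 bases 5′ to each start site listed by RefSeq (GRCm38.p6), all on the plus strand, at chr9:7272264-7272513 for Mmp13, chr9:7344147-7344396 and chr9:7347124-7347373 for 2 start sites listed for Mmp12, and chr9:7558179-7558428 for Mmp8. Capitals mark TGANTCA, the site of AP-1 factors, and GAGGAA, the core bound by PU.1 and related Ets factors, either one searched on both strands. The motifs do not overlap each other here.
Mmp13: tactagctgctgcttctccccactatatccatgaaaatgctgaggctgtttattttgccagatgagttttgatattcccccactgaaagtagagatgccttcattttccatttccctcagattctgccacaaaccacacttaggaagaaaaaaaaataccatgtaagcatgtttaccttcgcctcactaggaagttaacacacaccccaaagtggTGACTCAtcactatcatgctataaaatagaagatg
Mmp12, upstream start: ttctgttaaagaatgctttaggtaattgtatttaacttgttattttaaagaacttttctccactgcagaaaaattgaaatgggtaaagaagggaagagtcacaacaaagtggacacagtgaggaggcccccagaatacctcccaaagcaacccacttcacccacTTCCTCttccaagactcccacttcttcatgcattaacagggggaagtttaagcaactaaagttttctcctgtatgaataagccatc
Mmp12, downstream start: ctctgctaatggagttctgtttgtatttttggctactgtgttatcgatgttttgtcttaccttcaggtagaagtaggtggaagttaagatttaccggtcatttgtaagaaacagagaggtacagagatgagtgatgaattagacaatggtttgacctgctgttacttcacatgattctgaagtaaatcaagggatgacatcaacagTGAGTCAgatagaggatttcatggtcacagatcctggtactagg
Mmp8: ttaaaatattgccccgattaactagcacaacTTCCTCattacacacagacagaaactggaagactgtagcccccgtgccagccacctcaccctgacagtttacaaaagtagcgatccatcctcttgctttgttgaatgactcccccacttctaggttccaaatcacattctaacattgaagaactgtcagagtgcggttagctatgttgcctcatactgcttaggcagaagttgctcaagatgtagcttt
A TGANTCA match began 35 bases before the start of Mmp13 and 44 bases before the downstream start of Mmp12, and there was none before the upstream start of Mmp12 or in Mmp8. GAGGAA was found, on the minus strand, with its leftmost base 86 bases before the upstream start of Mmp12 and 219 before that of Mmp8. Of all 32851 windows of this length in the table, 6.75% hold TGANTCA and 23.3% hold GAGGAA. The table listed 7 of the 10 genes, and the windows of Mmp14, Timp1, Timp2 and Timp3 held neither motif. A match is only a run of letters, and nothing about binding was measured.

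Genes with the most similar pattern were taken by the root mean square difference over the 6 arrays after each gene was centred on its own mean, as a description with no test. The 3 nearest to Mmp12 were the chemokine gene Ccl17 (1.13 log2 units), the chemokine gene Ccl5 (1.28) and the carbonic anhydrase gene Car4 (1.36). All 3 were between 3.53 and 5.91 in GM-MPP and between 9.32 and 13.48 on the dendritic cell arrays. None came as close to Mmp12 as the neighbours of the other genes did. The measure is not scaled, so it tends to grow with the span of a gene, which was widest for Mmp12 (10.27). The larger distances therefore do not show that its pattern was less shared. Mmp2 was closest to the complement protease gene C1ra (0.27), to Il1a (0.39), which encodes interleukin-1 alpha, and to Il1rn (0.49), which encodes its receptor antagonist. C1ra stood at 4.75 on GM-DC 1 and at 8.53 on GM-DC 2, much like Mmp2. Mmp8 was closest to Emb (0.35), Fgd4 (0.39) and the Fc receptor gene Fcgr4 (0.41), Mmp9 to Lrmda (0.59), Ecm1 (0.63) and the Toll-like receptor gene Tlr1 (0.67), and Mmp13 to Clmp (0.48), Klk1b1 (0.58) and Stfa3 (0.61). Mmp14 lay nearest to Trim30d (0.44), Lgals3bp (0.52) and Ifi27l2a (0.52), and Mmp19 to Slfn1 (0.42), Egr1 (0.43) and Pde7b (0.43). For Timp1 they were Dixdc1 (0.22), Tnfsf13b (0.23), which encodes the B cell factor BAFF, and Uchl1 (0.25), and for Timp2 they were P2ry6 (0.17), Acvrl1 (0.22) and Ahnak (0.24). Timp3 spanned less than 2 units and was left out.

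Other genes of matrix proteolysis were described from 7 lists, in which calls are from the fit over all genes. That fit called 4.5% of all genes in GM-DC and 7.03% in GM-TNFa-DC against GM-MPP, so a single call in a list of 13 to 23 genes is near the background and says nothing of the list. Of 13 measured other metalloproteinases and inhibitors, 1 fell in GM-DC against GM-MPP and none rose. It was Reck, a membrane-anchored inhibitor of metalloproteinases, at 5.47 and 5.90 in GM-MPP and 3.83 and 3.39 in GM-DC (log2 change -2.08 ± 0.22, limma adjusted p = 0.0132), and at 3.82 and 3.71 in GM-TNFa-DC (-1.92 ± 0.22, limma adjusted p = 0.0137). The list's median change was 0.10. Of 23 ADAM and ADAMTS genes none was called in GM-DC and 1 in GM-TNFa-DC, Adam17, the sheddase that releases TNFa from the membrane. Its level was 9.01 and 9.21 in the progenitors, 9.74 and 10.10 in GM-DC and 10.54 on both GM-TNFa-DC arrays, a change of 1.43 ± 0.21 from GM-MPP (limma adjusted p = 0.0244). Its difference of 0.62 ± 0.21 between the 2 kinds of dendritic cell did not pass (limma adjusted p = 1). Among 14 activators of proenzymes, none was called in GM-DC and Plgrkt, a plasminogen receptor, rose in GM-TNFa-DC (1.75 ± 0.35, limma adjusted p = 0.0457). The membrane serine protease gene St14 had a change of -1.53 ± 0.32 in GM-DC and did not pass (limma adjusted p = 0.0623).

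Matrix-cutting proteases of other classes went both ways. The list held 17 measured proteases, most of them serine and cysteine proteases. Of these, 4 rose and 4 fell in GM-DC against GM-MPP, where 1.87% of all genes rose and 2.63% fell. In GM-TNFa-DC against GM-MPP 4 rose and 4 fell as well. The neutrophil serine proteases Ctsg (-7.13 ± 0.55), Elane (-6.35 ± 0.31) and Prtn3 (-6.09 ± 0.40) fell in GM-DC with limma adjusted p between 0.00219 and 0.00541, together with the basophil protease gene Mcpt8 (-3.08 ± 0.37). Elane, the neutrophil elastase, went from 11.63 and 12.30 in GM-MPP to 5.79 and 5.45 in GM-DC. This was opposite in sense to the macrophage elastase Mmp12. Ctsg, Elane and Prtn3 are also among the neutrophil markers, whose mean went from 12.08 and 12.65 in GM-MPP to between 6.99 and 8.29, and the part of neutrophil precursors in these falls was not tested. The cysteine proteases that rose were the cathepsin genes Ctsk (5.13 ± 0.43), Ctsh (2.40 ± 0.35), Ctss (2.37 ± 0.26) and Ctsc (1.52 ± 0.20). Cathepsins K and S also cut elastin, and Ctsk is one of the osteoclast markers, whose mean was 5.06 and 5.20 in GM-MPP and between 7.04 and 7.37 on the dendritic cell arrays. The list's median change was 0.90 in GM-DC and 0.89 in GM-TNFa-DC.

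Of 16 measured protease inhibitors outside the Timps, 2 rose and 1 fell in GM-DC. Wfdc17, a small secreted protein of the whey acidic protein family, rose by 3.42 ± 0.19 (limma adjusted p = 0.00249) and the serpin gene Serpinb6a by 2.90 ± 0.33, while Serpinb1a, an inhibitor of neutrophil serine proteases, changed by -3.14 ± 0.45. In GM-TNFa-DC 3 rose and 1 fell. As with Timp1, 4 of these 16 were at least 2-fold brighter on array 2 in both dendritic cell groups, where 3.2% of all genes were. At least 2-fold dimmer on array 2 in both was 1 of the 16, where 2.06% of all genes were. Among the 4 was Serpinb2 (5.35 and 6.19), an inhibitor of plasminogen activators. Among 14 surface partners of these enzymes, 3 rose in GM-DC and none fell: Cd9 (2.65 ± 0.16, limma adjusted p = 0.00368), a tetraspanin, Lrp1 (2.54 ± 0.28), the receptor that clears proteases with their inhibitors, and Igf2r (1.70 ± 0.28). Cd9, Lrp1 and Igf2r were called in GM-TNFa-DC too. Of 23 substrate genes of the matrix none was called in any comparison. Fibronectin, Fn1, was at 6.55 and 12.26 in GM-DC and at 5.84 and 12.37 in GM-TNFa-DC, an array split in the same sense as that of Mmp2 and Mmp13 and wider than theirs. In GM-TNFa-DC against GM-DC no gene of any of the 7 lists was called. The counts depended on single arrays. Over the 7 lists 9 genes rose and 6 fell in GM-DC, and these became 2 and 1 when GM-MPP 1 or GM-MPP 2 was left out, 3 and 5 on dropping GM-DC 1, and 3 and 3 on dropping GM-DC 2. In GM-TNFa-DC 12 rose and 6 fell, which became 2 and 2 on dropping GM-MPP 1, 4 and 2 on dropping GM-MPP 2, 4 and 5 on dropping GM-TNFa-DC 1, and 8 and 6 on dropping GM-TNFa-DC 2. Reck, Lrp1, Igf2r, Serpinb6a, Adam17 and Plgrkt each lost the call when either GM-MPP array was left out, as did Ctsg and Serpinb1a. Prtn3 and Cd9 did so in GM-DC, Cd9 only without GM-MPP 2. Lrp1, Igf2r, Serpinb6a and Serpinb1a also lost the GM-DC call without either GM-DC array, and Reck without GM-DC 2. In GM-TNFa-DC Adam17 lost it without either GM-TNFa-DC array, and Reck, Lrp1, Igf2r, Serpinb6a and Plgrkt without GM-TNFa-DC 1. For Mcpt8 and the cathepsin genes this was not examined. Elane and Wfdc17 were called in both comparisons whichever of the 6 arrays was left out.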

How the data were processed

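RNA of 6 samples was measured on Affymetrix arrays. Per the labels' protocols, total RNA was isolated on columns with DNase treatment, then labelled by a one-cycle method from 1 microgram. The deposited values are on a log2 scale, inferred from their range of 1.89 to 14.4, and were made by the authors with RMA, per the submitters' processing notes, and Bioconductor, per the labels. RMA corrects background, quantile-normalizes arrays and summarises probes. Dim and very bright signals are compressed in such array values. The software versions, and which arrays entered 1 normalization, were not given in the sources used here.

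Probe sets were named by the platform annotation, with 34945 single-symbol, 932 multi-symbol and 9160 unnamed probe sets and 64 controls, and symbols were updated through Entrez identifiers (34741 matched). Each gene was represented by the brightest of its single-symbol probe sets, by mean over the 6 arrays. Changes were fitted with limma 3.58.1 in R 4.3.3 (intensity trend, 3 groups sharing 1 spread, with 3 residual degrees of freedom) and adjusted by Benjamini-Hochberg over 18193 genes with a threshold of 0.05. On simulated arrays of 18193 genes, the fit recovered 22% of 2-fold and 88% of 4-fold changes for GM-DC against GM-MPP. Between the 2 kinds of dendritic cell it recovered 32% and 90%. It also called 8 and 7 unchanged genes. The simulated noise was independent between arrays, without the difference by array number, and the changed genes were drawn at random from all genes. These shares therefore do not hold for genes with a wide split between arrays 1 and 2, such as Mmp2, Mmp8, Mmp9, Mmp13, Mmp19 and Timp1. Plots were drawn with matplotlib 3.10.9 in Python 3.11.15.

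Named were the 10 genes, up to 3 called genes of each list with the largest change, or the largest without overlap where none was called, the genes of the chromosome 9 run and the 3 most alike in pattern. The text gives part of them. Other genes named with values (Flt3, Cd34, Kit, Mcpt8, Ctsk, Ctsh, Ctss, Ctsc, Fn1, Serpinb2, Cd14, Mrc1, S100a9, Ngp, Lcn2, Dcn, Acp5, Epx, Prg2 and the collagen genes) are list members picked after their values were seen. The 10 genes, the lists and the tests were chosen with earlier results of these data known. Of 225 list entries, 23 had no single-gene probe set. Only 2 arrays a group limit the precision.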

Additional observations from a re-analysis of the deposited data

How the results depend on the processing

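The log2 change of Mmp12 from GM-MPP, a description as in the report, ran over 15 alternatives from 9.29 to 10.02 in GM-DC and from 9.20 to 9.93 in GM-TNFa-DC. Same-numbered arrays of the dendritic cell groups deviated together (correlation 0.806 over genes), those of GM-MPP hardly with either (0.105 and 0.0719). The main fit of all 3 groups therefore did not take the numbers as pairs. In GM-TNFa-DC against GM-DC its errors thus include the difference that both groups shared. A replicate block by array number called 627 genes higher with 849 lower in GM-DC against GM-MPP and 850 with 1210 in GM-TNFa-DC, 2 of the 10 genes (Mmp12 and Mmp14) were higher in each, and 18 and 21 list genes were higher. With the block on only the 4 arrays compared, chosen after seeing the data, the counts were 151 and 125, with 2 of the 10 and 4 list genes higher, and 144 and 116, with 4 list genes higher. Nothing is read from the counts among the 10 genes. Between the 2 kinds of dendritic cell the replicate block lowered the errors. They became 1.05 for Mmp2, 0.96 for Mmp13, 0.87 for Mmp8, 0.75 for Mmp19, 0.57 for Timp1 and 0.47 for Mmp9. The limma adjusted p stayed at 1 for all 10. That block gave all 3 groups a single difference by array number, although GM-MPP hardly correlated with the others over all genes. These errors can therefore also hold the misfit of GM-MPP. Pairing GM-DC with GM-TNFa-DC by number, progenitor arrays set aside, likewise left none of the 10 under an adjusted p of 0.05. Without the block, only the 4 arrays compared gave 303 and 446 in GM-TNFa-DC against GM-MPP. Every probe set on its own gave 519 higher and 732 lower in GM-DC and 1251 lower in GM-TNFa-DC, with 15 and 19 probe sets of list genes higher. Here more features were tested. With each array left out, counts ran from 20 to 346 higher and 30 to 371 lower in GM-DC and from 37 to 303 and 51 to 457 in GM-TNFa-DC. List genes ran from 2 to 11 and 1 to 6, and from 2 to 9 and 2 to 7. The cause of these shifts was not tested beyond the smaller number of arrays.

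Signs turned only with an array left out, except for Timp3 in GM-TNFa-DC against GM-DC, which was 0.11 as the mean of its probe sets. In that comparison the ranges with 1 array left out were -0.44 to 0.25 for Mmp12, -2.21 to 1.85 for Mmp13, -0.04 to 1.80 for Mmp14, -2.65 to 1.11 for Mmp19, -1.01 to 2.91 for Mmp2, -3.18 to 0.76 for Mmp8, -2.35 to 1.81 for Mmp9, -1.17 to 1.94 for Timp1 and -0.72 to 0.21 for Timp2. In GM-DC against GM-MPP they were -0.22 to 2.19 for Mmp19, -1.73 to 1.04 for Mmp9 and -0.03 to 2.25 for Timp1. In GM-TNFa-DC against GM-MPP they were -1.66 to 2.10, -2.69 to 1.47 and -0.06 to 3.04. A group left with 1 array was assumed to vary like the others.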
